A study of Rattus norvegicus with 4 samples.

Results

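The genes described here handle iron or bind metal ions: Fth1 and Ftl1 (ferritin heavy and light chains), Tf (transferrin), Tfrc (transferrin receptor), Cp (ceruloplasmin), Lcn2 (lipocalin 2) and the metallothionein genes Mt1 and Mt2A. They were chosen by symbol, with earlier results of these data known, and every probe set annotated to any of the 8 symbols was taken. On the array design used at day 1 there were 12 such probe sets of 15866 outside the controls, and on the design used at day 3 there was 1 of 15276. RNA came from the lateral wall of the rat cochlea, the tissue of spiral ligament fibrocytes, in 4 groups of 1 array each: 3-nitropropionic acid (3-NP) at day 1 and at day 3, and saline at day 1 and at day 3. 3-NP irreversibly blocks succinate dehydrogenase, complex II of the mitochondrial respiratory chain, and the labels call the preparation a cochlear model of acute mitochondrial dysfunction. All animals were female Sprague-Dawley rats of 8 to 10 weeks and 180 to 210 g. The solution, 300 mM 3-NP in saline or saline alone, was placed at the left round window, and the right cochlea of every rat was destroyed. The labels place the tissue in the upper basal turn in one field and in the second turn without the stria vascularis in another. How many animals gave RNA to each array is not stated in the sources used here.

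Cells take up iron bound to transferrin through the transferrin receptor and store what they do not use inside ferritin shells, whose heavy chain oxidises the iron and whose light chain helps the mineral core to form. Ceruloplasmin, a copper protein, oxidises iron so that it can leave cells and load onto transferrin, and lipocalin 2 binds the siderophores by which bacteria acquire iron. Iron regulatory proteins hold back translation of ferritin mRNA and stabilise transferrin receptor mRNA when iron is scarce, so mRNA levels alone do not give the protein levels. Metallothioneins are small cysteine-rich proteins that bind zinc and copper, and their genes are switched on by metals through the transcription factor MTF1, and also by glucocorticoids and oxidative stress.

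At day 1, Lcn2 and Mt2A had far higher signals in the 3-NP array than in the saline array, at 12.6-fold and 4.12-fold relative to the median gene. The probe sets annotated to Mt1 and Ftl1 were higher by less than 2-fold, Tfrc by less still, and Fth1 lay at the median gene. Tf and Cp lay below it, with Cp close to 2-fold lower by each of its 3 probe sets. With 1 array a group there was no replicate and no test, and all values below describe these arrays.

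The signal is the deposited MAS5 value on a linear scale, which does not compare one gene with another. The log2 ratio of 3-NP over saline is given relative to the median gene of the day, because signals in the day 1 arrays were shifted by 0.44 (log2) as deposited and those at day 3 by 0.10. The technical SD of a single log2 ratio, 0.35 at day 1, comes from 744 genes with 2 or more probe sets on the same arrays. It covers differences between probe sets, not between repeat arrays, animals or dissections. Signals under the 30th percentile of an array, 22 in 3-NP and 17.1 in saline at day 1, were set to that floor. A probe set entered the counts when it reached the 50th percentile in at least 1 array of the day, and a gene or probe set at least 2-fold apart is counted as higher or lower.

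**Figure D1:**
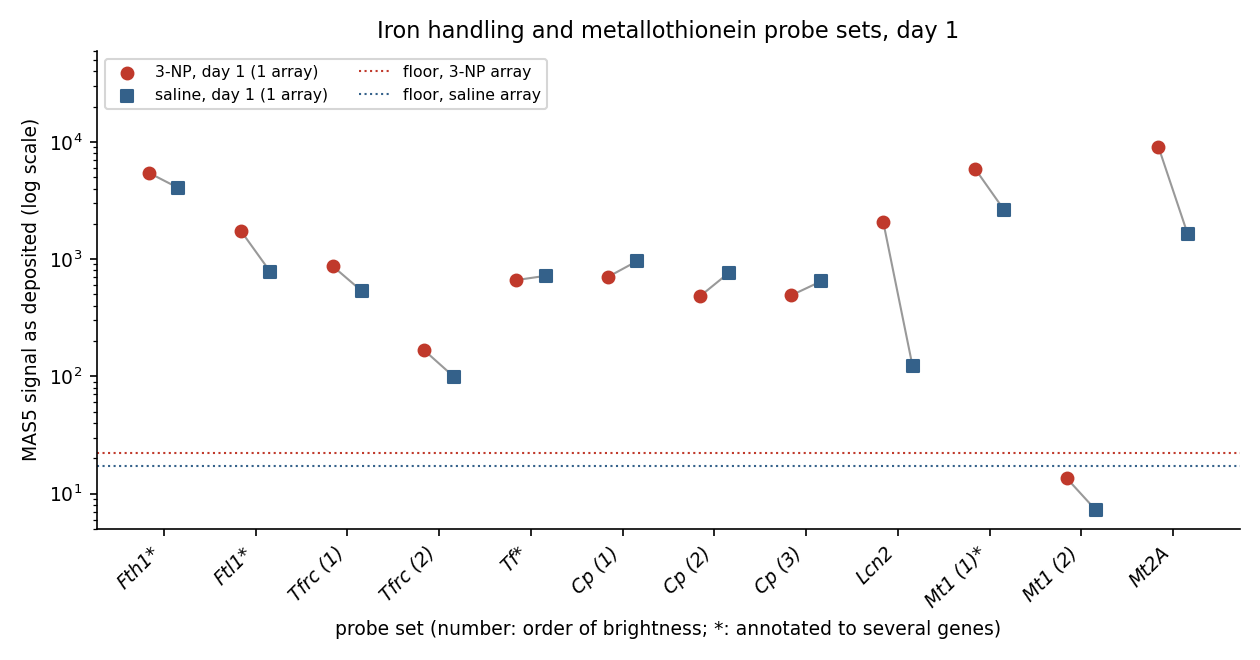
Deposited MAS5 signal (log axis) of the 12 probe sets at day 1, with the 3-NP array as circles and the saline array as squares, and each array's floor as a dotted line. Lcn2 and Mt2A show the steepest steps, the 3 Cp probe sets and Tf are lower in 3-NP, and the dimmer Mt1 probe set lies under the floor in both arrays.

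Of the 12 probe sets 11 passed the filter, and these covered all 8 genes. Relative to the median gene 2 of the 11 were at least 2-fold higher in 3-NP, where 7.58% of all 8617 probe sets were, and 1 was at least 2-fold lower, where 7.03% were. By the brightest probe set of each gene, 2 of 8 genes were higher and 0 lower, against 7.76% higher and 6.47% lower of the 6533 genes measured. As deposited 4 of 8 were higher and 0 lower, where 17.9% and 2.62% of genes were. The median log2 ratio of the 8 genes was 0.50, with the median of all measured genes at 0 by construction. By these probe sets, shared ones included, the ratios of 5 genes lay more than 2 technical SDs from the median gene (Lcn2, Mt2A, Cp, Mt1 and Ftl1) and those of 2 within 1 SD (Fth1 and Tfrc). Many other probe sets lay as far out. Of the 8617, the Ftl1 probe set ranked 1109th from the highest and the brightest Cp probe set 745th from the lowest. The share of all genes beyond 2 SDs was not counted. Ftl1 and Mt1 only just passed that mark, at 2.04 and 2.11 SDs. With the shift fitted along brightness (lowess) their ratios were 0.67 and 0.65, under 2 of these SDs. As deposited Cp was at -0.45, also under, so the count of 5 depended on the processing.

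**Figure D2:**
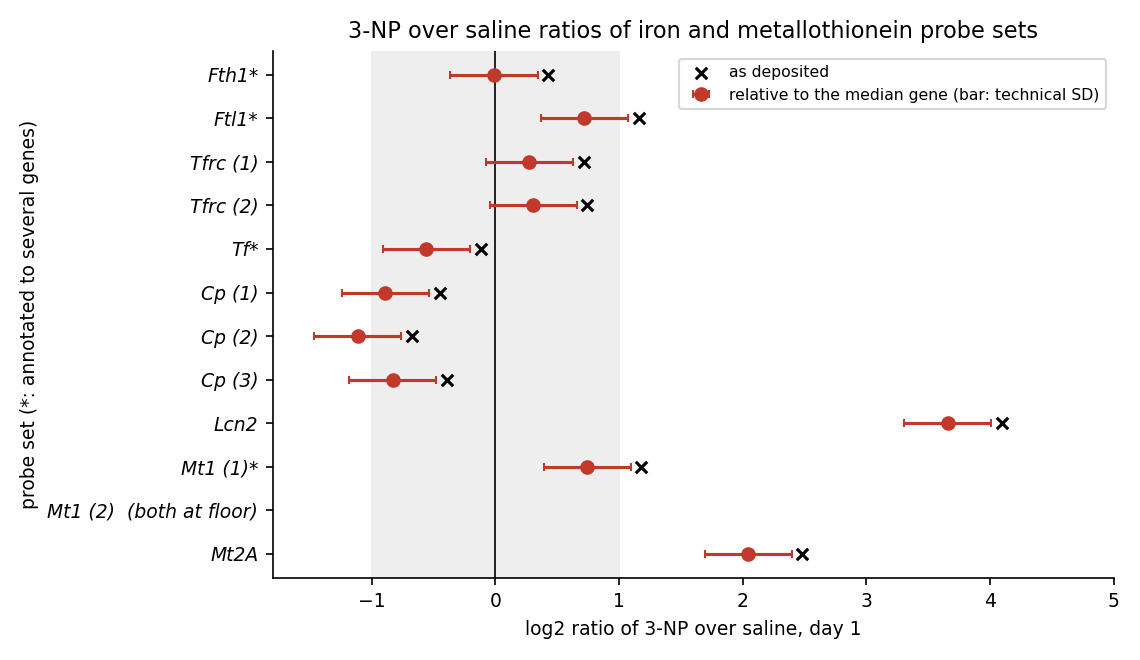
Log2 ratio of 3-NP over saline at day 1 for the same probe sets, relative to the median gene (circles, with bars of 1 technical SD to each side) and as deposited (crosses). The grey band spans ratios under 2-fold; Lcn2 at 3.66 and Mt2A at 2.04 lie to its right, and 1 of the Cp probe sets, at -1.11, to its left.

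Of the metallothionein genes, Mt2A had a signal of 9070 in 3-NP and 1624 in saline, and its relative log2 ratio of 2.04 was the 112th highest of 6533 genes. The brighter Mt1 probe set had 5923 in 3-NP and 2613 in saline, a relative log2 ratio of 0.74 and a fold of 1.67. That probe set is annotated to Mt1, Mt1f and Ttr together, so its signal cannot be given to Mt1 alone. Ttr, which encodes the thyroid hormone carrier transthyretin, had a probe set of its own, singled out here for that reason, with 58.5 in 3-NP and 49.6 in saline. The only probe set annotated to Mt1 alone had 13.5 in 3-NP and 7.19 in saline, under the floor in both arrays, so it gave no ratio.

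The ratio of Mt2A exceeded that of the Mt1 probe set by 1.30 (log2), where the technical SD of a difference of 2 ratios was 0.50. This difference does not depend on the centring. Mt3, a metallothionein known mainly from the brain, had 345 in 3-NP and 511 in saline, a relative log2 ratio of -1.0 that just reached 2-fold lower (-0.57 as deposited). It stood 3.05 below Mt2A and 1.75 below the Mt1 probe set. Mtf1, the gene of the metal-sensing factor and named here after its values were seen, had 109 in 3-NP and 71.7 in saline, a relative log2 ratio of 0.17.

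The stretches before the starts of Mt2A, Mt1 and Lcn2 are printed because the brightest probe sets of these symbols, the shared one of Mt1 included, had the highest ratios among the 6 of 8 genes found in the RefSeq promoter table of the GRCr8 assembly. Each run covers the 250 bases before the annotated start, 5′ to 3′ on the gene's own strand, which is the minus strand for all 3. Mt2A lies at chr19:10838709-10838958, Mt1 at chr19:10832976-10833225 and Lcn2 at chr3:36081781-36082030. Capitals mark matches to the metal response element core (TGCACNC or TGCGCNC, either strand) in Mt2A and Mt1. In Lcn2 they mark matches to a loose kappa B pattern (GGG, any 5 bases, then CC) and to a C/EBP pattern (TTGCNNAA), both on either strand.
Mt2A: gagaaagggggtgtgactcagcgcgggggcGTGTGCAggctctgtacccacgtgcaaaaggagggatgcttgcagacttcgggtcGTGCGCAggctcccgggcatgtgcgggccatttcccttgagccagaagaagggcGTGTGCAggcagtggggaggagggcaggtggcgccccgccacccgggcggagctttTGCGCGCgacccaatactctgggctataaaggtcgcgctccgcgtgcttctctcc
Mt1: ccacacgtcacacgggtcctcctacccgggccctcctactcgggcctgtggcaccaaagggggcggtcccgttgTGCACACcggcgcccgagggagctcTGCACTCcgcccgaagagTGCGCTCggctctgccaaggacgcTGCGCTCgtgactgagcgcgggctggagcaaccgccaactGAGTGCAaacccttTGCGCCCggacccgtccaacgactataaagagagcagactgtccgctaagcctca
Lcn2: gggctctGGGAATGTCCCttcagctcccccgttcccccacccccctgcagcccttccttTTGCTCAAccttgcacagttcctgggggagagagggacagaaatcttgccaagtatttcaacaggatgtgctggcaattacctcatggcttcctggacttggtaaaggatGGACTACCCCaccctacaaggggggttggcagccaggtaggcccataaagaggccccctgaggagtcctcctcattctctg

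The Mt1 stretch held 6 matches to the metal response element core and the Mt2A stretch 4. Of 33469 promoter stretches of the same length, 20.6% held at least 1 match, 0.128% at least 4 and 0.0239% at least 6, counting overlapping matches once. Tfrc and Tf had 2 such stretches each, and Cp and Lcn2 had 0. The antioxidant response element pattern TGACNNNGC occurred once in Mt1 and once in Mt2A, and in 10.1% of all stretches. Lcn2 had 2 stretches with the kappa B pattern, where 16.5% of all promoters had at least 2 and 42.3% at least 1, and 1 C/EBP match, a pattern found in 9.22% of them. The kappa B pattern also lay in 1 stretch each of Mt1, Mt2A and Tfrc, and a C/EBP match also in Tf and in Cp. No match to one pattern overlapped a match to another. These are letter matches, and binding was not measured.

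**Figure D3:**
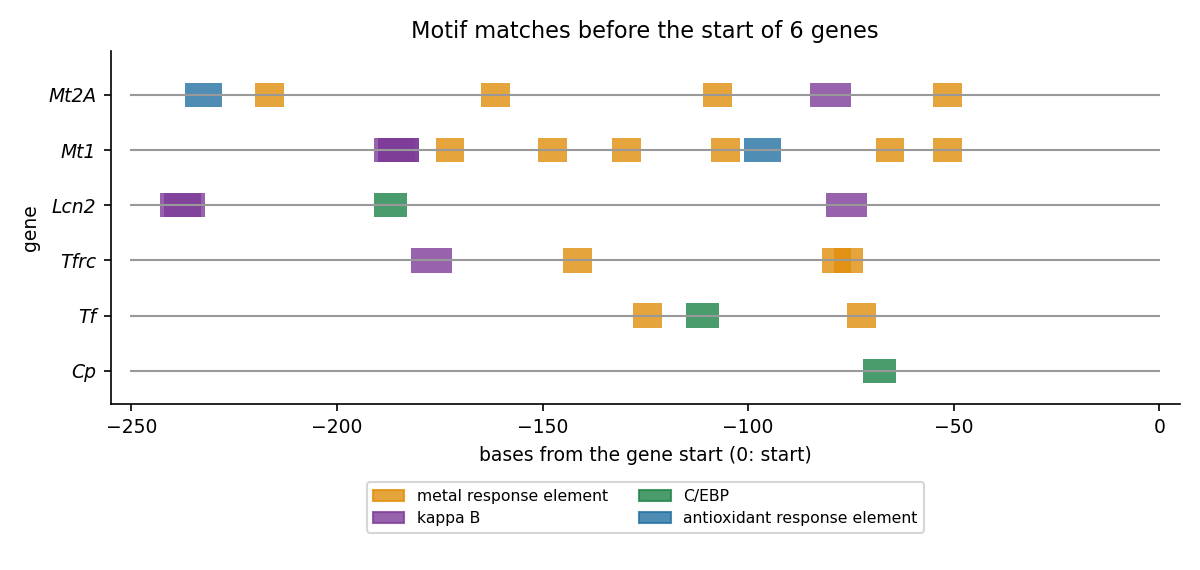
Position of matches to 4 motifs in the 250 bases before the start of Mt2A, Mt1, Lcn2, Tfrc, Tf and Cp, in bases from the start. Mt1 and Mt2A carry 6 and 4 metal response element cores, and kappa B and C/EBP matches lie in Lcn2 and in others of the 6.

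Lcn2 is an acute phase gene, made by neutrophils and by many inflamed epithelia. Its signal was 2093 in 3-NP and 122 in saline, a relative log2 ratio of 3.66 that was the 18th highest of 6533 genes. The ratio was 3.54 to 4.10 over the 10 alternative ways of processing. Of 11 neutrophil markers 5 were on the array and 2 passed the filter, S100a9 with 128 in 3-NP and 74.6 in saline, and S100a8 with 55.5 in 3-NP and 64.2 in saline. Their summed signal was 184 in 3-NP and 139 in saline. Of the 2, 0 were 2-fold apart, where 7.76% of all genes were higher and 6.47% lower. Mmp8 and Cxcr2 were under the floor in both arrays and Fcnb, with 23.8 in 3-NP and 17.5 in saline, was just above it. The part of neutrophils in the Lcn2 ratio was not tested. In tissue RNA, more RNA per cell and more cells of a type cannot be told apart.

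Slc22a17, which encodes a receptor proposed for lipocalin 2, had 890 in 3-NP and 1047 in saline, and was also named after its values were seen. Other acute phase genes were counted beside Lcn2. Of 22 on that list 8 were measured and 5 were at least 2-fold higher, Lcn2 and Cp included in the 8, where 7.76% of all genes were. One of the 5, Lbp, which encodes a lipopolysaccharide binding protein and is named after its values were seen, only just passed, with 431 in 3-NP and 159 in saline, and 3 of the 10 alternatives counted 4. C3, the central complement protein, had 372 in 3-NP and 40.4 in saline, a relative log2 ratio of 2.76. Serpina3n, a protease inhibitor gene, had 763 in 3-NP and 153 in saline, at 1.88. Hpx, which encodes the heme scavenger hemopexin, had 93.7 in 3-NP and lay at the floor in saline, so it was at least 4.03-fold higher. This bound, 2.01 on the log2 scale, depends on the floor and was 1.29 with the floor at the 40th percentile and 2.82 at the 20th. The median of the list was 1.44, where that of all genes was 0, and it turned to -0.019 with a looser filter on dim genes and to 0 with none. Haptoglobin, encoded by Hp, was too dim to count, at 8.99 in 3-NP and 22.3 in saline.

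The ferritin probe sets could not be given to one chain gene each. The Ftl1 probe set had 1742 in 3-NP and 781 in saline, a relative log2 ratio of 0.72. The Fth1 probe set had 5438 in 3-NP and 4045 in saline, a ratio of -0.01 relative to the median gene that turned to 0.43 as deposited. The Ftl1 probe set stood 0.73 above the Fth1 probe set, less than 2 of the technical SDs of 0.50 for such a difference. Each is annotated to more than its own gene, Fth1 with the pseudogene Fth1-ps5 and Ftl1 with 4 further symbols, among them Ftl1-ps14 and Ftl1l2, so neither value can be given to a single gene with certainty. The chaperone gene Pcbp1, whose protein delivers iron to ferritin, was the furthest from the median gene among the other storage genes, with 1068 in 3-NP and 436 in saline (0.85). Of the 3 measured storage genes other than ferritin 0 were 2-fold apart, where 7.76% of all genes were higher and 6.47% lower.

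Transferrin and its receptor were both within 2-fold of the median gene. Tfrc had 872 in 3-NP and 532 in saline by its brighter probe set, and 166 in 3-NP and 99.3 in saline by the other. The relative log2 ratios were 0.27 and 0.30, which differ by less than the technical SD and lie within 1 SD of the median gene. The Tf probe set had 662 in 3-NP and 720 in saline, a relative log2 ratio of -0.56 (-0.12 as deposited). It is also annotated to Srprb, which encodes a subunit of the signal recognition particle receptor. A passing probe set of Srprb alone, singled out for that reason, had 377 in 3-NP and 296 in saline, a ratio of -0.09. Tfrc stood 0.83 above the Tf probe set, less than 2 of the SDs of 0.50 for a difference.

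Cp was lower in 3-NP by each of 3 probe sets. The brightest had 705 in 3-NP and 964 in saline, the next 480 in 3-NP and 767 in saline, and the dimmest 492 in 3-NP and 645 in saline. Their relative log2 ratios were -0.89, -1.11 and -0.83, and as deposited -0.45, -0.68 and -0.39. Only the middle one passed 2-fold, so the gene counted by its brightest probe set did not. Cp stood 4.55 below Lcn2. Heph, another ferroxidase gene, fell below the filter with 21.1 in 3-NP and 36.6 in saline, and was named after its values were seen.

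Markers of the dissected tissue and of other cells were counted beside Tf and Cp. Of 12 spiral ligament fibrocyte markers 8 were measured, of which 5 were lower by 2-fold or more and 0 higher (as deposited 3 were lower and 0 higher). Of all genes 6.47% were lower (2.62% as deposited). The 8 fibrocyte markers had a summed signal of 7345 in 3-NP and 12995 in saline. Of 12 stria vascularis and melanocyte markers 6 were measured and 5 were lower (2 as deposited), with a summed signal of 2571 in 3-NP and 4384 in saline, in tissue that a label describes as free of stria. Kcnj10, a stria channel gene, was under the floor in both arrays. Schwann cell and oligodendrocyte markers, counted because oligodendrocytes make transferrin, had 4 measured genes and 0 of them 2-fold apart (1 higher as deposited). Of all genes 7.76% were higher (17.9% as deposited). The summed signal of the 4 was 3166 in 3-NP and 1592 in saline, of which Mbp gave 2008 and 921. Their median relative log2 ratio was 0.37. Of 8 hepatocyte markers only Ttr passed the filter, and Alb, which encodes albumin, was under the floor in both arrays by both probe sets. The part of tissue makeup in the Tf and Cp ratios was not tested.

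Beyond the 8 genes, the iron and heme lists at day 1 held 42 measured genes. Of these 6 were at least 2-fold higher and 1 lower, against the 7.76% and 6.47% of all genes. As deposited 11 were higher and 0 lower, against 17.9% and 2.62% of all genes. The median of the 42 was -0.09 and turned to 0.35 as deposited. Hmox1, which encodes the heme-degrading enzyme that releases iron, had 551 in 3-NP and 29.8 in saline, a relative log2 ratio of 3.77. Hamp, which encodes hepcidin, the peptide hormone that closes the iron exporter ferroportin, had 1373 in 3-NP and 82.4 in saline, a ratio of 3.62. These ranked 16th and 19th among all genes, on either side of Lcn2. Slc39a14, a transporter of zinc and of iron not bound to transferrin, had 366 in 3-NP and 78.1 in saline (1.79).

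Other regulators went in both directions. Neo1, which encodes neogenin, a partner of hemojuvelin, had 113 in 3-NP and 31.3 in saline (1.41), while its dimmer probe set was under the floor in both arrays. Id1, a target of bone morphogenetic protein signalling, had 1130 in 3-NP and 363 in saline (1.20). Hfe, the gene mutated in the common form of hereditary haemochromatosis, had 36.0 in 3-NP and 65.0 in saline (-1.29, and -0.85 as deposited). Slc40a1, the ferroportin gene, was too dim to count by any of its 3 probe sets, and the brightest had 26.9 in 3-NP and 18.9 in saline. It too was named after its values were seen.

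Heme and iron-sulfur genes other than Hmox1 and Hpx were within 2-fold of the median gene. Of 11 measured heme genes 2 were higher, Hmox1 and Hpx, and 0 lower, against 7.76% and 6.47% of all genes, with a list median of -0.13 that turned to 0.31 as deposited. Alas2, the heme synthesis gene of red cell precursors, named after its values were seen, had 279 in 3-NP and 123 in saline (0.74). Of 13 genes of iron-sulfur cluster assembly 0 were 2-fold apart. As deposited 2 were higher, where 17.9% of all genes were. Their median was -0.20 (0.24 as deposited), and the furthest was the mitochondrial chaperone gene Hspa9, with 327 in 3-NP and 148 in saline (0.71). Erythrocyte markers, which carry heme iron, had 3 measured genes and 0 of them 2-fold higher relative to the median gene (1 as deposited, against the same 17.9%). Their summed signal as deposited was 7839 in 3-NP and 4036 in saline, of which Hbb gave 7217 and 3695. Their median relative log2 ratio was 0.53. Of 10 macrophage markers 4 were measured and 1, Cd14, was higher (also 1 as deposited), where 7.76% of all genes were (17.9% as deposited). Aif1, Ptprc and Itgam were under the floor in both arrays. The 4 measured macrophage markers had a summed signal of 2209 in 3-NP and 1335 in saline, of which Lyz2 gave 1876 and 1183. Their median relative log2 ratio was 0.28. The part of blood cells or macrophages in the Hmox1 and Hamp ratios was not tested.

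Among 11 measured metallothionein and zinc transporter genes Mt2A was higher and Mt3 lower, and the other 9 were within 2-fold, against 7.76% and 6.47% of all genes. Mt3 was lower by less than 2-fold in 5 of the 10 alternatives, and 2 genes of the list were higher in 3 of them, as deposited and with a looser or no filter. Of 9 measured copper genes, which again include Mt2A and Cp, Slc31a2, a copper transporter gene, was lower with 29.6 in 3-NP and 59.6 in saline (-1.45). The median of that list was -0.40 and turned to 0.04 as deposited.

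**Figure D4:**
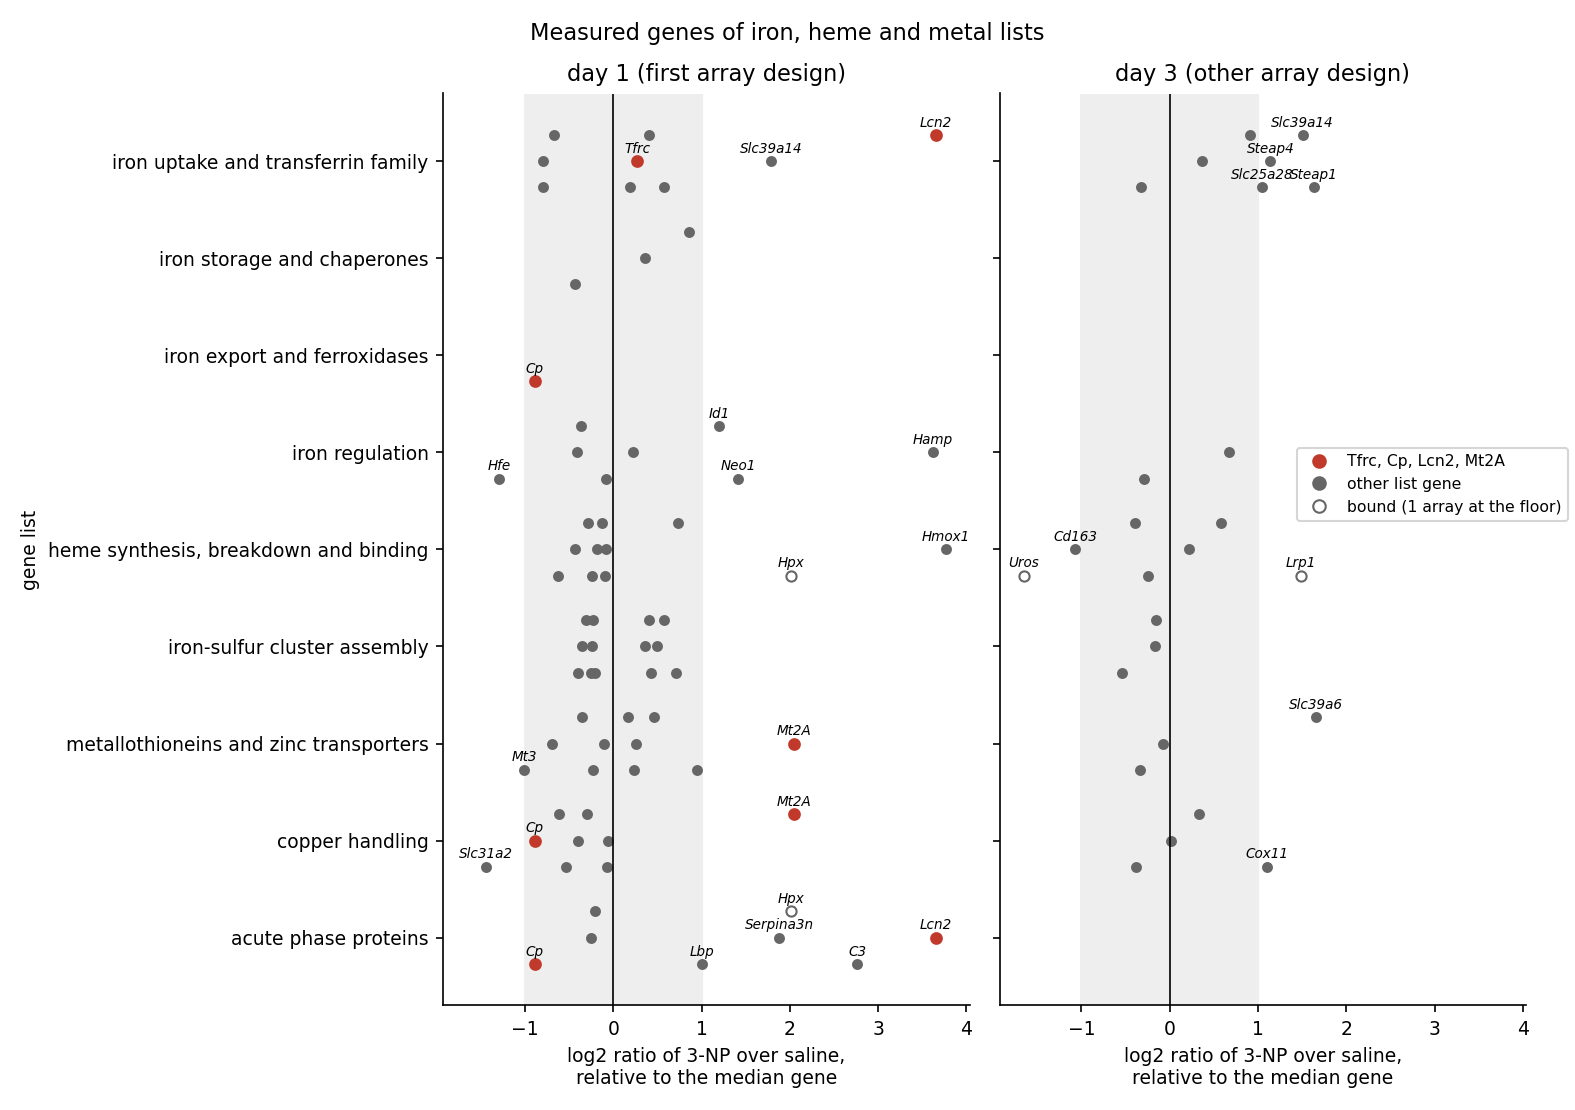
Log2 ratio of 3-NP over saline relative to the median gene for each measured gene of 9 iron, heme and metal lists, at day 1 and day 3 (a gene may stand in several lists). Grey bands span ratios under 2-fold, open circles are bounds, and Tfrc, Cp, Lcn2 and Mt2A are in red; Lcn2, Hamp and Hmox1 lie furthest to the right at day 1, between 3.62 and 3.77.

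At day 3 the other array design held a single probe set of the 8 genes, annotated to Tf and Srprb. It had 5.40 in 3-NP, under the floor, and 11.1 in saline, and did not pass the filter, so the 8 genes have no ratio at day 3. Other iron and heme genes were measured there, 19 in all. Of these 5 were at least 2-fold higher and 2 lower, against 9.21% and 8.18% of the 3972 genes measured, and the technical SD was 0.47. On the iron uptake list 4 of 7 measured genes were at least 2-fold higher (2 with 16 units added to each signal in place of the floor) and 0 lower, with a median of 1.05. Slc39a14 had 63.8 in 3-NP and 21.0 in saline (1.51), so it was higher on both days, by different probe sets and in different arrays.

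Steap1, of a family of metalloreductases, had 48.1 in 3-NP and 14.5 in saline (1.63). Steap4, of the same family, had 63.4 in 3-NP and 26.8 in saline (1.14). Slc25a28, which encodes the mitochondrial iron importer mitoferrin 2, had 500 in 3-NP and 225 in saline (1.05). Lrp1, which encodes the receptor that takes up heme bound to hemopexin, was at least 2.80-fold higher, with 27.7 in 3-NP and saline at the floor, and under 2-fold with the floor at the 40th percentile (0.93 on the log2 scale) or with 16 added (0.76). On the lower side Uros, a heme synthesis gene, was at least 3.15-fold lower, with 3-NP at the floor and 28.9 in saline, a bound of -1.65 on the log2 scale that was -1.10 with the floor at the 40th percentile and -2.49 at the 20th. Cd163, the hemoglobin scavenger receptor gene of macrophages, had 11.4 in 3-NP and 22.2 in saline (-1.07, and -0.97 as deposited). With the 16 units added 2 of the 19 genes were higher and 1 lower. Of 3 measured zinc genes Slc39a6, a zinc importer gene, was higher, with 179 in 3-NP and 52.8 in saline (1.66, and 0.61 and 0.95 by its dimmer probe sets). Of 4 copper genes Cox11, a cytochrome c oxidase assembly gene, was higher, with 28.0 in 3-NP and 12.1 in saline (1.11). That saline signal was near the day 3 saline floor of 9.22. The dimmer Cox11 probe set gave a bound of 1.13, with saline at the floor. For these zinc and copper counts, the share of all genes higher at day 3 was 9.21%.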

How the data were processed

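The values deposited by the authors are intensities, signals per probe set on a linear scale. They were made with MAS5, per the submitters' processing notes, and the sources used here state neither a scaling target nor detection calls. Day and array design coincide, so levels were not compared between days. Probe sets were named by the platform annotation, with symbols brought up to date by gene identifier against RefSeq genes of GRCr8. On the day 1 design 12783 probe sets carried 1 symbol, 312 several and 2771 none, and on the day 3 design 7564, 100 and 7612. Among gene values, those with several symbols served only for the 8 genes, and such values are shared. The floors and the filter were set on all probe sets outside the controls. Counts over all probe sets took those that passed the filter, whatever their symbols. From the signals, floors, a filter, log2 ratios and their centring on the median measured gene were computed with Python 3.11.15, numpy 2.4.6 and pandas 2.3.3, and checked on simulated arrays. A gene stood for its brightest probe set. With 1 array per group no test was made. The precision is limited by the number of arrays, and the technical SD leaves out repeat arrays and animals. Named genes beyond the 8 were, per list and day, up to 4 at least 2-fold apart, or else the furthest from 0. The 8 genes, the lists and the rule were chosen with earlier results of these data known. Alternatives changed the centring, normalization, floor, filter or probe set rule. Promoter stretches came from RefSeq, GRCr8.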

Additional observations from a re-analysis of the deposited data

Results flagged for a closer look

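Lrp1 and Nubp2 lay on opposite sides of the median gene at the 2 days, and the difference was not tested. Lrp1 was at 1.48 (log2, a bound) at day 3, with 27.7 in 3-NP and saline at the floor, and at -0.10 at day 1, with 680 in 3-NP and 536 in saline, which turned to 0.34 as deposited. Nubp2, which acts in cytosolic iron-sulfur cluster assembly, was at -0.54 at day 3, with 19.6 in 3-NP and 26.6 in saline, and at 0.49 at day 1, with 337 in 3-NP and 177 in saline. Each day used its own probe sets and array design. Groups of 1 array could not be searched for outlying samples.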

How the results depend on the processing

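No paired analysis was possible because the labels number no replicates and each group has 1 array; for the same reason no array could be left out. As deposited, without centring, the day 1 log2 ratios were 0.43 for Fth1, 1.16 for Ftl1, 0.71 for Tfrc, -0.12 for Tf, -0.45 for Cp, 4.10 for Lcn2, 1.18 for Mt1 and 2.48 for Mt2A, with a median of 0.94 and 4 of 8 genes at least 2-fold higher. The other alternatives moved none of the 8 by as much as the technical SD, and the ranges over all 10 were 3.54 to 4.10 for Lcn2, 1.95 to 2.48 for Mt2A and -0.95 to -0.45 for Cp. With probe sets of 1 gene only, an alternative chosen after seeing the data, the median over the genes left was 1.16. Those left were Cp at -0.89, Tfrc at 0.27, Mt2A at 2.04 and Lcn2 at 3.66, so this median lay close to none of them. As deposited at day 1, 1169 of the 6533 genes were higher and 171 lower (507 and 423 when centred). Of the genes at least 2-fold apart, 87.2% were higher as deposited and 54.5% when centred. The iron and heme genes, with those of the 8 measured on these lists, had 12 higher and 0 lower as deposited. Their median was then 0.35 (7, 1 and -0.09 when centred). With looser or no filter 2 iron and heme genes were lower at day 1, and the acute phase median was -0.019 with the filter at the 25th percentile and 0 with none. At day 3, adding 16 in place of the floor gave 155 higher and 148 lower of all genes (366 and 325) and 2 higher and 1 lower iron and heme genes (5 and 2), of which 1 was also lower as deposited or with the floor at the 40th percentile. Of 240 values of 24 other named genes under the alternatives 212 stayed within the technical SD, 28 moved further and 0 of those 2-fold apart changed sign. The cause of these shifts was not tested beyond what each alternative changes. The median signal of all probe sets was 19.97 in 3-NP and 18.67 in saline at day 3, and 60.7 in 3-NP and 44.9 in saline at day 1.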
